A study of Mus musculus with 6 samples.

Results

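The transcripts of p53 target genes were measured in mouse kidneys at E13.5 with and without Fz4, the receptor for Wnt ligands and Norrin that the gene Fzd4 encodes. The 10 genes were listed by name (Cdkn1a, Mdm2, Ccng1, Trp53inp1, Bbc3, Pmaip1, Bax, Sesn1, Phlda3 and Zmat3), and all probe sets that the platform annotation gives to one of them alone were taken. This gave 18 probe sets for 9 genes, out of 45101 probe sets on the array. The annotation used here lists none for Bax. Whole kidneys of Fz4-/- embryos (3 samples) and of Fz4+/+ embryos (3 samples) were hybridised to Affymetrix MOE430.2 arrays, with 1 sample per genotype from each of 3 litters. No treatment was given, and the labels state neither the strain, the nature of the Fz4 allele, nor how many embryos went into a sample. The values are log2 expression levels from RMA, a method that corrects background, equalises the arrays and combines the probes of a probe set. A unit of 1 is a doubling, and levels of different probe sets cannot be set against each other.

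The transcription factor p53 is kept low in unstressed cells by the ubiquitin ligase Mdm2, which marks it for destruction. After DNA damage or other stress p53 accumulates, binds response elements near its target genes and raises their transcription, which halts the cell cycle, starts apoptosis or alters metabolism. In the developing kidney, loss of Mdm2 from renal progenitors is known to stabilise p53 and to impair nephron formation, so these targets are a common readout of stress in the organ. A whole kidney mixes ureteric bud, nephron progenitors, stroma, vessels and blood, and fewer cells of a type cannot be told apart from less RNA per cell.

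A p53 response element is built from decamers of a shared consensus, which reads the same on both strands and is named here without its letters. The decamer consensus was searched in RefSeq windows of GRCm38.p6 that run from 250 bases before to 50 bases after a gene's start. Of the 10 genes, 7 have such windows here, 11 in all, and Pmaip1, Trp53inp1 and Zmat3 have none. The decamer lay in 5 of these 11 windows, whereas 8.36% of all 32851 windows hold it. The 6 matches are shown because they carry the consensus that p53 recognises. The decamer is in capitals, with 15 bases on either side, 5′ to 3′ on the strand of the gene.
Cdkn1a, chr17:29090891-29090930, plus strand: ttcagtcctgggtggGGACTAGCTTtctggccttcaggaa
Cdkn1a, chr17:29090913-29090952, plus strand: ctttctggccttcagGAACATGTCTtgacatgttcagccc
Mdm2, chr10:117710920-117710959, minus strand: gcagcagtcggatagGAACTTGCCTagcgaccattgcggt
Ccng1, chr11:40755447-40755486, minus strand: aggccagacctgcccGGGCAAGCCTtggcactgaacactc
Bax, chr7:45467075-45467114, minus strand: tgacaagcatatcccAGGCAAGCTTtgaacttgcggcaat
Sesn1, chr10:41887251-41887290, plus strand: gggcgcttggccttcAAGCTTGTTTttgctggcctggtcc

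Both Cdkn1a matches lie in the window of the upstream of its 2 annotated starts, with the decamers beginning 73 and 51 bases before that start. The decamer of Mdm2 begins 186 bases before the start, that of Ccng1 185, that of Bax 201 and that of Sesn1 173, the last in the second of its 2 windows. The single window of Phlda3 and the 3 windows of Bbc3 held no match. A match describes letters only, and binding of p53 was not measured here.

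The arrays were comparable in signal, with medians from 6.62 to 6.74 log2. Fzd4 read 4.37, 3.58 and 6.22 in the Fz4-/- samples of litters 1 to 3 and 11.21, 11.12 and 10.31 in the Fz4+/+ samples on its brightest probe set (1434756_at), so every library went with its label. Kidney markers were present, with means of 9.52 to 9.80 for 9 nephron progenitor genes and 9.91 to 10.22 for 9 ureteric bud genes. Of the Fz4+/+ samples, those of litters 2 and 3 stood apart. The one of litter 2 had the highest level of 8 of 11 striated muscle genes (list mean 8.50, against 6.45 to 7.87 on the other arrays) and the lowest of 6 of 9 ureteric bud genes (9.91, against 10.19 to 10.22). For actin, its 3' probe set exceeded its 5' one by 0.90 log2, a gap that widens in degraded RNA, against 0.64 to 0.86 elsewhere. For Gapdh the same gap was 0.90 there and 0.90 in the Fz4+/+ sample of litter 3, against 0.75 to 0.86 on the other 4. The Fz4+/+ sample of litter 3 had the highest means of the liver (8.23), erythroid (11.18) and chromaffin (8.06) lists and the lowest array weight in limma, 0.22. The chromaffin mean of the Fz4+/+ sample of litter 2 was close to it at 7.93, against 6.39 to 6.87 on the other 4 arrays.

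Whether loss of Fz4 moved the p53 targets was asked by comparing the genotypes with limma, with genotype as the sole term. No p53 target passed the test. Of the 18 probe sets, 17 passed the filter on low signal, and limma called 0 of them at an adjusted p under 0.05, as it called 0.00% of 27022 probe sets tested. At an unadjusted p under 0.05 there were 0 of 17, against 0.884% of all. With the brightest probe set for each gene, 6 of 9 genes were above 0 and the median difference, Fz4-/- minus Fz4+/+, was 0.04 log2. That median was 0.01 with the Fz4+/+ sample of litter 2 left out (6 of 9 above 0) and 0.12 with that of litter 3 left out (8 of 9). The median over all tested probe sets was 0.03, and 61.6% of them were above 0. Of the member probe sets 12 of 17 differed by less than 0.1 log2 in either direction, as did 55.1% of all. The values of the genotypes overlapped for all 18 probe sets, and for all but 3.64% of the probe sets tested. All 17 had the same adjusted p in limma, 0.999988. Fzd4 itself, which differed by -6.16 log2 on 1434756_at, had that adjusted p as well. A gene that was not called here may therefore still differ. Each sample has its own combination of genotype and litter, so the samples came from different embryos. The labels do not say how many embryos went into each, and p-values measure the spread between these samples.

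**Figure D1:**
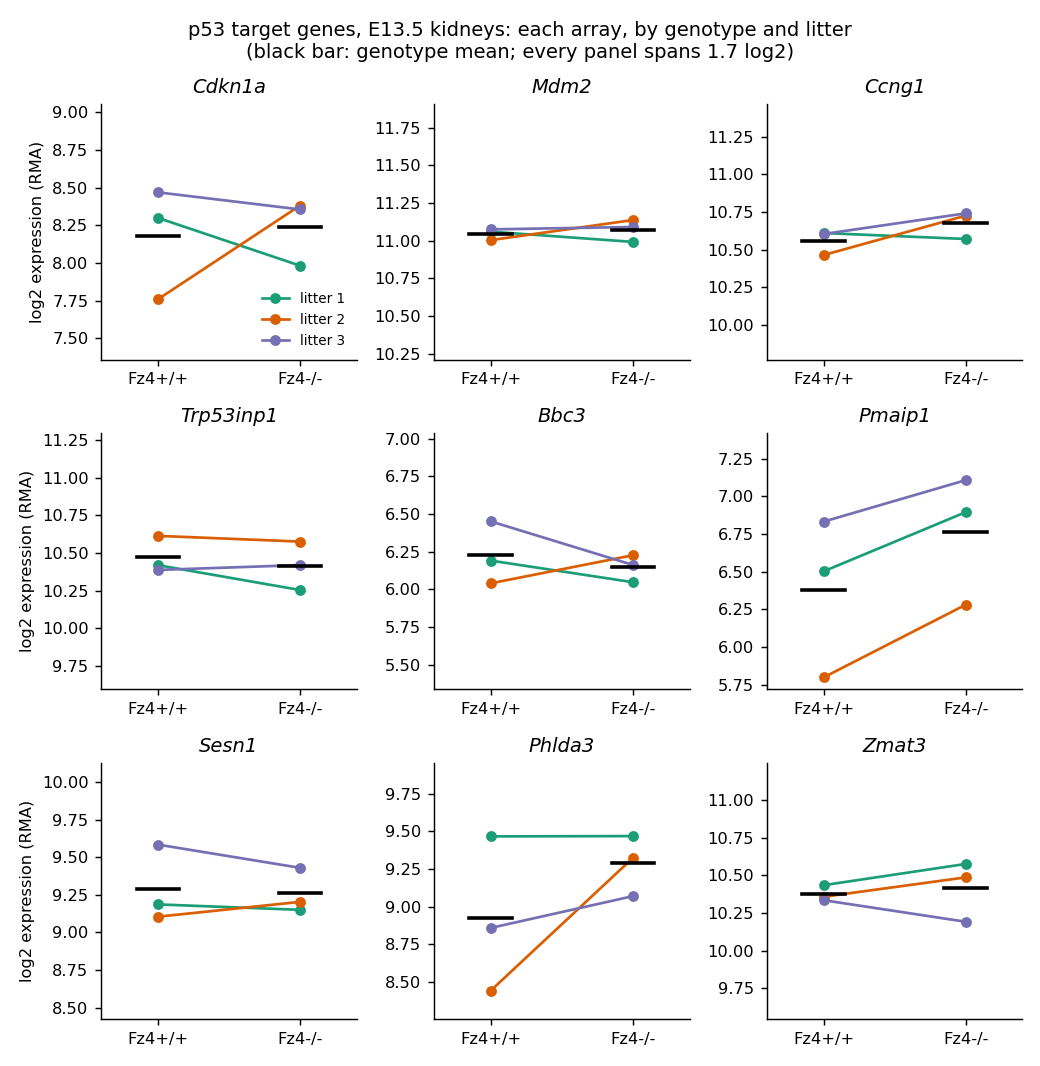
Each panel plots the log2 expression of 1 gene (its brightest probe set) in the 3 Fz4+/+ and 3 Fz4-/- arrays, with lines joining the samples of a litter and black bars at the genotype means, over the same span in every panel. Mdm2 and Ccng1 stay nearly flat, Pmaip1 is higher in the Fz4-/- sample of each of the 3 litters, and Phlda3 and Cdkn1a have a low Fz4+/+ sample in litter 2.

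On their brightest probe sets, the 2 genes of the feedback arm spanned the least of the 9 genes over the 6 arrays. Mdm2, the ligase that both restrains p53 and is induced by it, read 10.99, 11.14 and 11.09 in the Fz4-/- samples of litters 1 to 3 and 11.06, 11.00 and 11.07 in the Fz4+/+ samples (1423605_a_at). These 6 values span 0.15 log2, against a median span of 0.56 over all tested probe sets. The difference was 0.03 ± 0.10 (SE), with a 95% confidence interval from -0.21 to 0.27. A second Mdm2 probe set (1427718_a_at) differed by 0.03 ± 0.14 (SE), from 7.31 ± 0.05 in Fz4-/- to 7.27 ± 0.22 in Fz4+/+ (SD, n = 3). Ccng1 encodes cyclin G1, which brings a phosphatase to Mdm2. It read 10.57, 10.73 and 10.74 in Fz4-/- and 10.61, 10.47 and 10.60 in Fz4+/+ (1420827_a_at). Its difference of 0.12 ± 0.11 (SE) had an interval from -0.14 to 0.38 and an exact permutation p of 0.3, where 3 against 3 samples cannot go below 0.1. The 2 dimmer Ccng1 probe sets differed by 0.16 and 0.04, so all 3 were above 0 and none beyond the spread. These dimmer probe sets spanned 0.77 and 0.60 log2 over the 6 arrays, more than the median span of 0.56.

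The third Mdm2 probe set (1457929_at) spanned 2.46 log2, and its values parted by litter and not by genotype. It read 5.70, 5.42 and 4.04 in Fz4-/- and 5.70, 6.08 and 3.62 in Fz4+/+. Both samples of litter 3 were thus lower than the other 4, while the genotypes overlapped. Its mean was under the filter on low signal, so it was tested only without that filter. There the 2 samples of litter 3 lay -1.92 log2 from those of litter 2, with limma's unadjusted p of 0.00246 for litter and an adjusted p of 0.145. Where this probe set lies in the gene was not analysed here.

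Cdkn1a encodes p21, the inhibitor of cyclin-dependent kinases through which p53 halts the cell cycle. On its brighter probe set (1424638_at) it read 7.98, 8.38 and 8.36 in Fz4-/- and 8.30, 7.76 and 8.47 in Fz4+/+. Within litters the difference was -0.32, 0.62 and -0.11, so only litter 2 was higher in Fz4-/-. The mean difference was 0.06 ± 0.22 (SE), with an interval from -0.48 to 0.60. It became -0.14 without the Fz4+/+ sample of litter 2. The second probe set (1421679_a_at) read 6.46 to 6.65 over the 6 arrays, a span of 0.19, and differed by 0.03 ± 0.10 (SE). Within litters it gave 0.07, -0.04 and 0.07, opposite in sign to the brighter probe set in each litter. Among 12535 genes, Micalcl, Lurap1l, Ndufb1, Scamp5 and Mpped2 had profiles nearest that of Cdkn1a, at mean absolute distances of 0.03 to 0.05 log2 over the 6 arrays after centring. The median gene was 0.21 away. Of the other listed genes Bbc3 was nearest, at 0.13, and Pmaip1 farthest, at 0.31.

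The genes of the death arm differed in how far they varied. Pmaip1 encodes Noxa, a BH3-only protein that neutralises the survival factor Mcl1. It read 6.89, 6.28 and 7.11 in the Fz4-/- samples of litters 1 to 3 and 6.50, 5.80 and 6.83 in the Fz4+/+ samples (1418203_at). The Fz4-/- sample was the higher one in each litter, by 0.39, 0.48 and 0.28, yet the genotypes overlapped because the litters lay far apart. The mean difference was 0.38 ± 0.33 (SE), with an interval from -0.42 to 1.19, limma's unadjusted p of 0.290 and an exact permutation p of 0.4. With the litter as a block the same difference had an SE of 0.09, an interval from 0.13 to 0.64 and limma's unadjusted p of 0.0130, but an adjusted p of 0.999986. In that fit 1 of 17 member probe sets had an unadjusted p under 0.05, against 3.11% of all. With the litter as a random block the SE was 0.19 and limma's unadjusted p 0.0948, and 0 of 17 were under 0.05, against 3.48% of all. Pmaip1 and Phlda3 were higher in Fz4-/- in all 3 litters, 2 of 17 probe sets, against 14.2% of all, and 0 were lower in all 3, against 7.28%. Leaving out the Fz4+/+ sample of litter 2 gave a Pmaip1 difference of 0.09. Leaving out its Fz4-/- littermate gave 0.62. In litter 3, the difference was 0.21 with the Fz4-/- sample left out and 0.61 with the Fz4+/+ one left out. Leaving out both samples of a litter, as added alternatives, gave 0.33 without litter 2 and 0.44 without litter 3. With array weights, which weight the Fz4-/- sample of litter 2 by 8.81, it turned to -0.06. These fits had genotype as the sole term, so leaving out or weighting a single sample also brings in the difference between litters.

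Bbc3 encodes Puma, the other BH3-only protein in the list. It read 6.05, 6.23 and 6.16 in Fz4-/- and 6.19, 6.04 and 6.45 in Fz4+/+ (1423315_at). Its difference of -0.08 ± 0.14 (SE) had an interval from -0.42 to 0.26. The 2 genes thus stood on opposite sides of 0, and neither passed the test. Trp53inp1 encodes a stress protein that acts with p53 in apoptosis and autophagy. It read 10.25, 10.58 and 10.42 in Fz4-/- and 10.42, 10.61 and 10.39 in Fz4+/+ (1416926_at), a difference of -0.06 ± 0.13 (SE) with an interval from -0.37 to 0.26. Its dimmer probe set (1416927_at) differed by -0.18 ± 0.24 (SE). The difference there was -0.43 with the Fz4-/- sample of litter 3 left out (limma's unadjusted p of 0.0445, adjusted 0.999896). With array weights it was -0.40 (limma's unadjusted p of 0.0282, adjusted 0.186). In each of these fits 1 of 17 member probe sets had an unadjusted p under 0.05, against 0.674% and 22.5% of all. The difference was 0.0077 with the Fz4-/- sample of litter 1 left out. Within litters that probe set gave -0.73, -0.16 and 0.34, and on both probe sets the Fz4-/- sample of litter 1 was the lowest array.

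The genes of the growth and stress arm gave 1 difference of the size of that of Pmaip1. Phlda3, whose protein competes with the kinase Akt for membrane lipids, read 9.47, 9.32 and 9.07 in Fz4-/- and 9.47, 8.44 and 8.86 in Fz4+/+ (1449002_at). The difference was 0.36 ± 0.27 (SE), with an interval from -0.30 to 1.03, limma's unadjusted p of 0.231 and an exact permutation p of 0.3. Within litters it was 0.0020, 0.88 and 0.21, so litter 2 supplied most of it. It was 0.12 with that litter's Fz4+/+ sample left out, and 0.11 with both samples of the litter left out. Leaving out the Fz4+/+ sample of litter 1 instead gave 0.64, with limma's unadjusted p of 0.0250 and an adjusted p of 0.999953. In that fit 1 of 17 member probe sets had an unadjusted p under 0.05, against 1.22% of all. With array weights the Phlda3 difference was 0.03. The part of the muscle and ureteric bud levels of that Fz4+/+ sample in this result was not tested.

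Sesn1 encodes a sestrin, which restrains the growth regulator mTORC1. It read 9.15, 9.20 and 9.43 in Fz4-/- and 9.19, 9.10 and 9.58 in Fz4+/+ (1433711_s_at), a difference of -0.03 ± 0.16 (SE) with an interval from -0.43 to 0.37. Of its 4 probe sets 1 was above 0, and they ranged from -0.07 to 0.04. Zmat3, an RNA-binding zinc finger protein that acts in splicing, read 10.58, 10.49 and 10.19 in Fz4-/- and 10.43, 10.36 and 10.34 in Fz4+/+ (1449353_at). Its difference was 0.04 ± 0.13 (SE), with an interval from -0.28 to 0.36. It was higher in Fz4-/- in litters 1 and 2, by 0.14 and 0.13, and lower in litter 3, by -0.14.

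**Figure D2:**
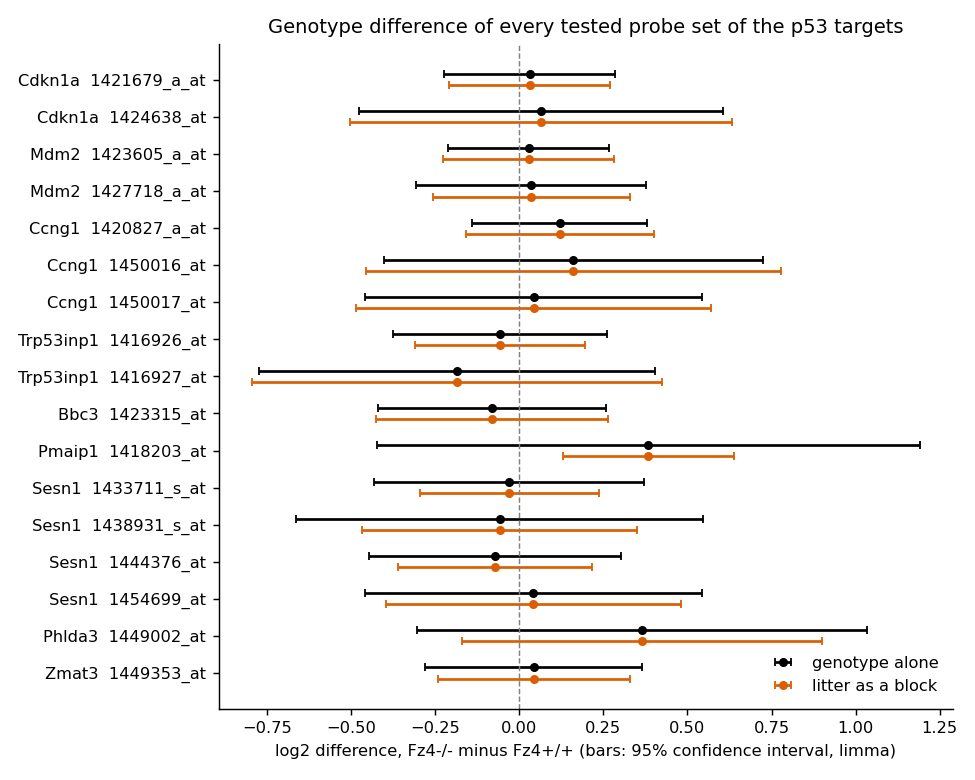
Points give the log2 difference between Fz4-/- and Fz4+/+ for each of the 17 tested probe sets, and bars the 95% confidence interval from limma, in black with genotype alone and in orange with the litter as a block. Every black interval includes 0, and the orange interval of Pmaip1, from 0.13 to 0.64, is the sole one that does not.

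How the targets varied among litters was tested with limma's F test for litter, with genotype in the model. The listed genes did not pass it either. The test called 0 of 17 member probe sets, as it called 0.00% of all, and 1 of 17 had an unadjusted p under 0.05, against 23.0% of all tested probe sets. That 1 was Pmaip1. The number depended on the samples and settings. It was 6 of 17 without the Fz4-/- sample of litter 2 (33.0% of all), 3 of 17 with its Fz4+/+ littermate left out (26.1%), 3 of 17 with no genotype term (27.5%), and 2 of 9, both of Sesn1, with the filter at the 60th percentile (25.7%). Pmaip1 averaged 6.70, 6.04 and 6.97 in litters 1, 2 and 3. Litter 3 was 0.93 log2 above litter 2, with limma's unadjusted p of 0.00219 and an adjusted p of 0.145. Both samples of litter 2 were below all 4 others. Sesn1 was highest in litter 3. Both litter 3 samples were above the other 4 on 3 of its 4 probe sets and on 1 probe set of Cdkn1a, 4 of 17 in all, against 36.9% of all tested probe sets. For Sesn1 litter 3 was 0.34 above litter 1 on the brightest probe set, with limma's unadjusted p of 0.0658. Of the tested member probe sets, that of Zmat3 had both litter 3 samples below the other 4, 1 of 17 against 15.5% of all, at -0.24 from litter 1. So did the Mdm2 probe set 1457929_at, which was under the filter. Phlda3 was highest in litter 1, with both samples at 9.47, and litters 2 and 3 were -0.58 and -0.50 from it.

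The Fz4+/+ sample of litter 2 was the lowest array for 10 of 17 member probe sets, against 35.4% of all tested probe sets. It was so for Pmaip1, Phlda3, Bbc3, all 3 probe sets of Ccng1, 2 of Sesn1 and 1 each of Cdkn1a and Mdm2. After centring each gene on its mean over the 6 arrays, 8 of 9 genes were below 0 in that sample, with a median of -0.16, and Trp53inp1 was the exception. The median of all tested probe sets there was -0.10. The Fz4-/- sample of litter 2 had the highest member median of the 6 arrays, 0.09, with 2 of 9 genes below 0. Over all tested probe sets the median there was 0.02. Within litter 2, 8 of 9 genes were higher in Fz4-/-, with a median of 0.19, against 0.12 over all tested probe sets. In litter 1 this held for 3 of 9 genes, with a median of -0.04, and in litter 3 for 5 of 9, with a median of 0.02. Without litter 2, an alternative added once the data had been seen, 3 of 9 genes were above 0 and the median was -0.03. Without litter 3, added likewise, 8 of 9 were above 0 and the median was 0.11.

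**Figure D3:**
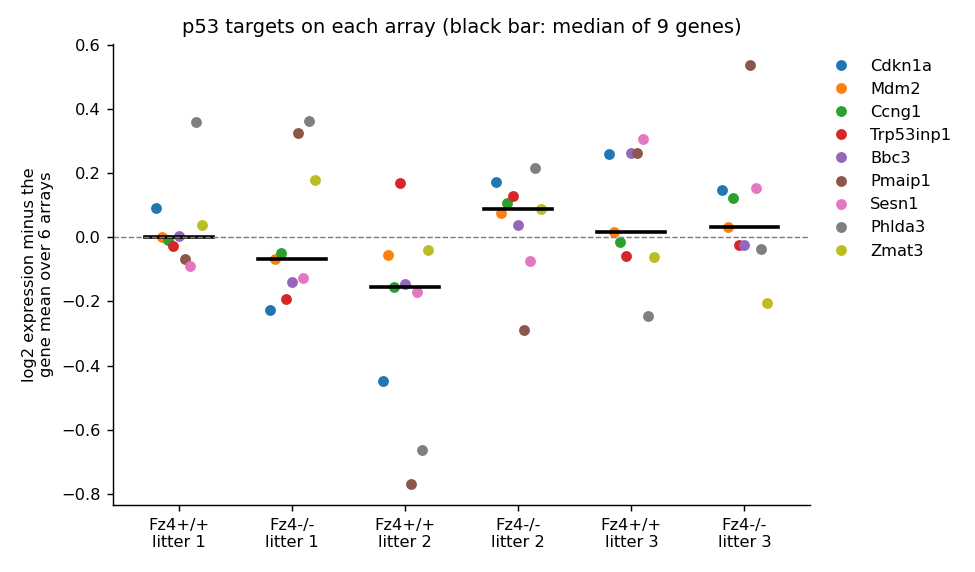
Each point is the log2 expression of 1 gene on 1 array minus its mean over the 6 arrays, and black bars mark the median of the 9 genes. The Fz4+/+ sample of litter 2 has the lowest median, -0.16, with Pmaip1, Phlda3 and Cdkn1a farthest down. Its Fz4-/- littermate has the highest median, 0.09.

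The rest of the pathway was described from lists of genes, each with its brightest probe set, and none of their genes passed limma for genotype or for litter. Of 14 tested members and regulators of the p53 family 8 were above 0, with a median of 0.0054. The kinase gene Atr, which signals replication stress, differed by -0.17 ± 0.22 (SE). Rchy1, a further ubiquitin ligase for p53, differed by 0.10 ± 0.15, and Wt1, a regulator of nephron progenitors and podocytes, by 0.05 ± 0.10. Hipk2, a kinase that phosphorylates p53, differed by -0.01. The annotation used here gives no probe set to Trp53 alone. Atr was 0.52 higher in litter 3 than in litter 1, with limma's unadjusted p of 0.0145 for litter. Hipk2 was -0.27 and Rchy1 0.20 from litter 1 there, and neither had an unadjusted p under 0.05.

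Further p53 targets were spread about 0, with 19 of 30 tested ones above it and a median of 0.03, and 0 had an unadjusted p under 0.05 for genotype. Perp, a desmosome protein of epithelia that is also a p53 target, read 0.53, 1.19 and 0.48 higher in Fz4-/- in litters 1 to 3. Its difference was 0.73 ± 0.33 (SE), with limma's unadjusted p of 0.0680, and its values overlapped between the genotypes. With the litter as a block the SE was 0.18, the interval ran from 0.25 to 1.21 and limma's unadjusted p was 0.0123, but the adjusted p was 0.999986. In that fit Perp was the 1 of 30 with an unadjusted p under 0.05, against 3.11% of all. With a random block Perp and Klhl26 were, 2 of 30 against 3.48%, and with array weights 10 of 30 were, against 22.5%. The difference of Perp was 0.75 with the Fz4+/+ sample of litter 2 left out. Of the 9 ureteric bud genes, markers of the kidney's first epithelium, 7 were above 0, with a median of 0.17. With that sample left out 5 of 9 were above 0, with a median of 0.0025. The part of the bud genes in the result for Perp was not tested. The metabolic regulator Tigar differed by 0.20 ± 0.12 (SE) and Klhl26 by -0.19 ± 0.10. Both were without overlap between the genotypes, as were 3.64% of all tested probe sets. They were named for being among the 3 of the list with the smallest unadjusted p for genotype. With the same sample left out they differed by 0.12 and -0.25. By litter, 9 of the 30 had an unadjusted p under 0.05, against 23.0% of all tested probe sets, led by Trp53inp2, Tnfrsf10b and Cpt1c. Trp53inp2, which acts in autophagy, was -0.72 from litter 1 in litter 3. The death receptor gene Tnfrsf10b was 0.97 above litter 1 there, and Cpt1c 0.64 above it.

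Of 13 tested paralogs of the listed genes 7 were above 0, with a median of 0.08. Phlda2, the imprinted relative of Phlda3, differed by 0.23 ± 0.18 (SE), and by 0.07 with the Fz4+/+ sample of litter 2 left out. Ccng2 differed by -0.11 ± 0.12, and Cdkn1c, the p57 inhibitor, by 0.11 ± 0.14. Cdkn1b, the p27 inhibitor, lay -0.55 from litter 1 in litter 2 and -0.76 in litter 3, with limma's unadjusted p of 0.00469 and an adjusted p of 0.145. Zmat1 was 0.37 above litter 1 in litter 3. In the BCL2 family, whose members decide whether mitochondria release death signals, 6 of 13 were above 0, with a median of -0.0077. The survival gene Bcl2 differed by -0.19 ± 0.12 (SE), the BH3-only gene Bcl2l11 by 0.10 ± 0.10 and the effector gene Bak1 by 0.10 ± 0.12. Bnip3, Bmf and Bid were 0.45, 0.46 and 0.31 above litter 1 in litter 3. Among cell cycle genes that p21 lowers through the DREAM repressor complex, 8 of 14 were above 0, with a median of 0.02. Aurka, Plk1 and Bub1, which act in mitosis, differed by 0.14, 0.07 and -0.09, and by 0.04, 0.06 and -0.18 with that sample left out. In litter 3 Cdc25c, Mki67 and Foxm1 were 0.34, 0.34 and 0.25 above litter 1. Of these 3 lists 0 genes had an unadjusted p under 0.05 for genotype. For litter 3 of 13, 2 of 13 and 1 of 14 had one, against 23.0% of all tested probe sets.

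**Figure D4:**
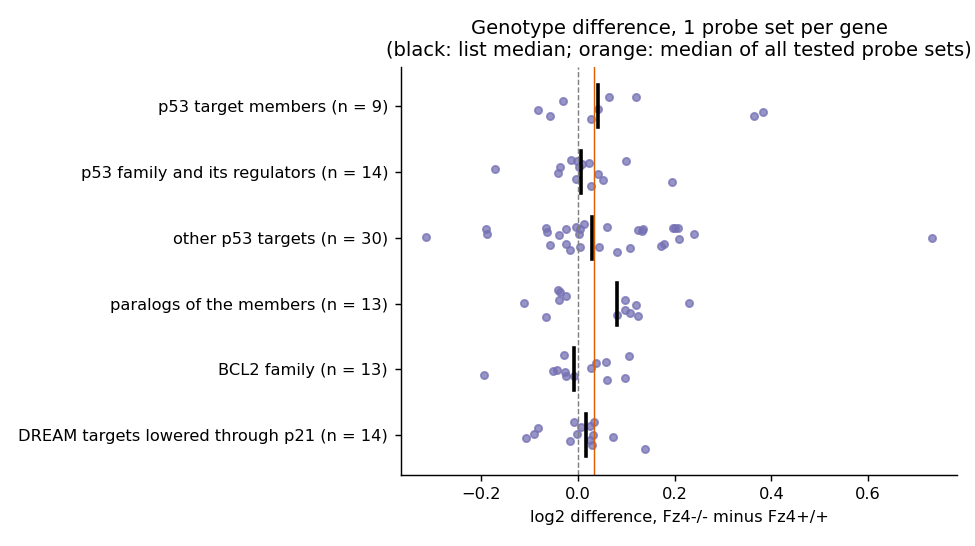
Each point is the log2 difference between Fz4-/- and Fz4+/+ of 1 gene, by list, with black bars at the list medians and an orange line at the median of all tested probe sets, 0.03. The list medians lie between -0.0077 and 0.08, and the point farthest right is Perp at 0.73.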

How the data were processed

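Whole E13.5 kidneys were measured on 6 arrays. The authors deposited log2 values per probe set, made with RMA (version not given in the sources used here), as named per the submitters' processing notes. RMA makes the arrays nearly equal in distribution and compresses differences near background. No scans were used, so no detection calls were made. Names came from the platform annotation, which gives 1 gene for 34958 probe sets, and symbols were checked by Entrez number against RefSeq genes of GRCm38.p6. After 64 control probe sets were left out, a test was run on the 27022 whose mean reached the 40th percentile (5.89 log2), with limma 3.58.1 in R 4.3.3 (two-sided, Benjamini-Hochberg adjustment over all tested probe sets, threshold 0.05). Genotype was the sole term, and litter was tested by an F test beside genotype, with 2 residual degrees of freedom. Single probe sets were also compared by exact two-sided permutation. The fits were tested on simulated data. Equal replicate numbers mark a shared litter in the labels. Deviations from the genotype means correlated by 0.577, 0.178 and 0.809 within litters 1 to 3. All listed genes were named, as were, in each pathway list, the 3 genes with the smallest unadjusted p for genotype, the 3 with the smallest for litter, and the 5 genes nearest Cdkn1a. The members and lists were chosen with earlier results of these data known. Alternatives covered the filter, normalisation, litter as a block, array weights, probe set choice and each sample left out. Every column of sample values was used.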

Additional observations from a re-analysis of the deposited data

How the results depend on the processing

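The count of 0 member probe sets called for genotype held under every alternative run, as did that for litter. The count over all probe sets was 0 for genotype except with array weights, which called 2. For litter it was 3 with the filter at the 60th percentile and 3 without a genotype term, and from 0 to 1506 when single samples were left out, the highest without the Fz4-/- sample of litter 2. Its Fz4+/+ littermate left out gave 326. With a sample left out the litter fit keeps 1 sample in a litter, which is assumed to vary like the others. The median difference of the 9 genes, 0.04, moved by less than the SD between litters of 0.12 under every alternative. The median fell below 0, to -0.03, when both samples of litter 2 were left out. Among the fits that left out a single sample, the lowest median was -0.0017 (Fz4-/- of litter 2) and the highest 0.12 (Fz4+/+ of litter 3). Blocking by litter kept the median at 0.04, quantile normalisation gave 0.02, and leaving out both samples of litter 3 gave 0.11. When single samples were left out, the sign of the difference changed for 6 of the 9 genes (Cdkn1a, Mdm2, Trp53inp1, Bbc3, Sesn1 and Zmat3). It stayed above 0 for Ccng1 (0.07 to 0.17), Pmaip1 (0.09 to 0.62) and Phlda3 (0.12 to 0.64). Such fits had genotype as the sole term and so also take in differences between litters. The number of probe sets at an unadjusted p under 0.05 for genotype was 239, and 841 with the litter as a block, 940 with it as a random block, 6084 with array weights, 531 without the filter, 141 with the filter at the 60th percentile, and 124 to 1725 when single samples were left out. For litter it was 6225, and 1761 to 8928 when single samples were left out. The block changed no call. Signal near background limits Bbc3, Pmaip1, the dimmer Cdkn1a probe set, the Sesn1 probe set 1444376_at and the third Mdm2 probe set. Their mean levels lie near or under the filter, as do those of Perp and Tnfrsf10b among the further p53 targets. With the filter at the 60th percentile 9 member probe sets were tested, and none of Bbc3 or Pmaip1.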
